A study of Mus musculus with 9 samples.

Results

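The 9 libraries described here compare cells in which either RNA of the Slc45a4 locus was knocked down with cells that carried a scrambled short hairpin RNA (shRNA). In utero electroporation at E13.5 (embryonic day) delivered the shRNAs to the cortex of C57BL/6 mouse embryos, and GFP+ cells were sorted by FACS at E15.5, 48 hours later, for polyA-selected RNA sequencing. One group of 3 libraries received 3 shRNAs against circSlc45a4, a circular RNA of the locus, another group of 3 got 2 shRNAs directed at the linear mRNA, and 3 libraries received 1 scrambled sequence (scramble). All 9 libraries of the series were used, 6 knockdown against 3 scramble, with both knockdown groups weighted equally. The shared shift is the set of genes that were called in this averaged comparison and in which all 6 knockdown libraries lay on the same side of all 3 scramble libraries. It held 2575 of 17760 genes tested, 1323 of them higher and 1252 lower in the knockdowns.

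The design limits what these groups can model. All 9 libraries carried a hairpin and the GFP label, and no library without a hairpin was analysed here. Every value below is therefore relative to 1 scrambled sequence: a rise in both knockdowns and a fall under the scrambled hairpin cannot be told apart, and "higher" and "lower" always mean higher or lower than in scramble. The labels do not say how many embryos gave a library, so p-values measure the spread between these libraries. Circular RNA has no polyA tail, and these gene counts do not measure circSlc45a4 itself.

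An shRNA is cut to a short duplex, and its guide strand is loaded into an Argonaute protein, which then pairs with transcripts. Besides the transcript it was designed for, a guide can lower others in the manner of a microRNA, through a match of the few bases near its 5′ end (the seed) to a 3′ UTR. A scrambled hairpin has a guide and a seed of its own. In the embryonic cortex, apical progenitors at the ventricle give rise to basal progenitors and to neurons, which migrate outward and settle in deep and then upper layers.

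The sorted cells carried the markers of the cortical lineage in every library. Pax6 (apical progenitors) was read at 81.7 to 193 CPM (counts per 1000000), Eomes (basal progenitors) at 298 to 530.0 CPM and Neurod6 (projection neurons) at 1069 to 1289.7 CPM. The endothelial marker Cldn5, the microglial marker Aif1 and the interneuron marker Gad1 did not exceed 0.574, 0.324 and 0.617 CPM, but their lists summed higher, to 21.4 to 46.4 CPM (endothelial, mostly Slc2a1), 7.75 to 19.0 CPM (microglia) and 34.9 to 64.4 CPM (ventral inhibitory lineage). The microglial list moved with a group, with 12.9 to 19.0 CPM in the circSlc45a4 knockdown, 9.32 to 15.1 CPM in the mRNA knockdown and 7.75 to 9.90 CPM in scramble. The Cajal-Retzius list, mostly Reln and Nhlh2, stood at 133 to 399 CPM, 34.5 to 73.2 CPM and 56.6 to 119 CPM in the same order. The part of these cells in the results was not tested. Depth moved with the comparison, with total counts of 21073174 to 31833779 in scramble and 35307378 to 45469298 in the knockdowns. A marker of sex moved with it too. Xist, which coats and silences an X chromosome in female cells, was at 0.0618 to 0.239 CPM in scramble and at 264 to 1550 CPM in 5 knockdown libraries, but at 0.194 CPM in Slc45a4 mRNA knockdown replicate 3. The part of sex in the shared shift was not tested beyond the covariate given below. The root mean square log2 distance between libraries was 0.57 to 0.69 within scramble, 0.64 to 0.82 between scramble and the mRNA knockdown and 0.77 to 0.93 between scramble and the circSlc45a4 knockdown, and the knockdown groups were 0.66 to 0.87 apart from each other.

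Slc45a4, which encodes a solute carrier of the SLC45 family (chr15:73577424-73645762, GRCm38, minus strand), was read at 25.4, 25.3 and 24.7 CPM in the circSlc45a4 knockdown, at 13.3, 18.5 and 17.4 CPM in the mRNA knockdown and at 31.4, 33.6 and 34.0 CPM in scramble. All 6 knockdown libraries lay below scramble, and the mRNA knockdown below the circSlc45a4 knockdown. The averaged log2 fold change was -0.70 ± 0.10 (SE; adjusted p = 3.14e-04, edgeR quasi-likelihood test). An exact 2-sided permutation test of the 6 against the 3 libraries gave p = 0.0238, where 0.0119 is the smallest p this design allows. The fall was -0.39 ± 0.12 with the circular and -1.01 ± 0.12 with the linear RNA targeted (adjusted p = 0.0245 and 1.08e-04), and these differed by 0.62 ± 0.12 (adjusted p = 2.27e-03). The call was lost with Xist as a covariate (-0.56, adjusted p = 0.131) and with the knockdowns treated as a single group (-0.67, adjusted p = 0.0502).

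Of the 17760 genes, 4025 (22.7%) were called in the averaged comparison at an adjusted p under 0.05, 1999 higher (11.3%) and 2026 lower (11.4%). All 6 knockdown libraries lay above scramble for 1616 genes (9.1%) and below it for 1546 (8.7%). Genes that met both conditions, the shared shift, made up 7.45% (higher) and 7.05% (lower) of the genes tested. The median shared gene differed by 0.54 (higher) or -0.50 (lower) on the log2 scale, and the change exceeded 2-fold in both knockdowns for 157 and 105 genes. Each knockdown on its own passed the test against scramble for 856 of the higher and 607 of the lower genes. These genes were picked with the same libraries, which favours such calls. Over all genes, 27.1% were called in the circSlc45a4 and 18% in the mRNA knockdown, each taken singly and in either direction. These shares are therefore not a like background for genes called in both. At the threshold, Dele1 (-0.23 ± 0.08) and Cops6 (0.24 ± 0.08) were just inside, and Gmpr2 (-0.28 ± 0.10) and Nt5m (-0.30 ± 0.10) just outside. The size of the set rests on scramble replicate 2 more than on any other library: without it 1181 genes were called higher and 1078 lower, and 989 and 876 were shared. Without scramble replicate 3, 1339 genes were called lower. With Xist as a covariate 421 higher and 160 lower genes were shared, and with the knockdowns as a single group 850 and 635.

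The 12 largest rises that both knockdowns shared, ranked by the smaller of the 2 changes, included genes of energy and lipid metabolism and a chaperone. Ldha, the subunit of lactate dehydrogenase that interconverts pyruvate and lactate (chr7:46841475-46855627), was read at 262, 282 and 223 CPM in the circSlc45a4 knockdown, at 225, 241 and 169 CPM in the mRNA knockdown and at 32.6, 48.1 and 50.8 CPM in scramble. The lowest knockdown library stood more than 3 times above the highest scramble library, and the averaged difference was 2.403 ± 0.157 (log2, adjusted p = 1.14e-06). Its processed pseudogene Ldha-ps2 moved by 2.24 ± 0.23, and reads of such copies can be shared with the parent gene. Hadhb, the beta subunit of the mitochondrial trifunctional protein of fatty acid oxidation, was read at 56.6, 58.0 and 54.9 CPM (circSlc45a4), 61.4, 50.0 and 53.3 CPM (mRNA) and 16.5, 21.9 and 18.6 CPM (scramble). Idi1, isopentenyl diphosphate isomerase of the cholesterol pathway, was read at 47.2, 63.9 and 56.2 CPM, at 61.1, 49.6 and 45.3 CPM and at 15.9, 14.6 and 17.4 CPM in the same order. For both genes the 2 knockdown groups overlapped each other and, by the rule for shared genes, neither overlapped scramble. The averaged changes were 1.55 ± 0.10 and 1.76 ± 0.13.

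Ptges3, the p23 co-chaperone of Hsp90, was read at 92.5, 111 and 109 CPM in the circSlc45a4 knockdown, at 127, 104 and 104 CPM in the mRNA knockdown and at 34.4, 33.8 and 39.2 CPM in scramble. Thap12, which encodes a THAP domain protein, was read at 97.1, 97.7 and 106 CPM, at 108, 94.4 and 95.3 CPM and at 33.3, 31.9 and 37.7 CPM. Igsf11, an adhesion molecule of the immunoglobulin superfamily, was read at 11.2, 13.1 and 14.3 CPM, at 15.49, 9.17 and 11.9 CPM and at 1.91, 2.46 and 1.79 CPM. These rises were even: the circSlc45a4 and mRNA knockdowns gave 1.54 and 1.64 for Ptges3, 1.55 and 1.53 for Thap12 and 2.64 and 2.56 for Igsf11 on the log2 scale. The differences between the knockdowns were -0.10 ± 0.10, 0.01 ± 0.09 and 0.08 ± 0.19, none of them called. Minar2 (1.87 ± 0.12) and Pcp4, a calmodulin regulator marking deep-layer neurons (1.90 ± 0.17), rose as well, as did the pseudogene Ptges3-ps (1.71 ± 0.11), whose reads may belong in part to Ptges3. Tmem117 and the anion transporter Slc26a7 rose in both knockdowns but more in the circSlc45a4 knockdown, by 2.21 ± 0.36 and 2.08 ± 0.27 (adjusted p = 6.61e-04 and 1.47e-04). In the same direct comparison Pcp4 was called too, by 0.48 ± 0.16 (adjusted p = 0.0462). None of these 12 calls was lost in any of the 20 alternative settings tried.

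**Figure D1:**
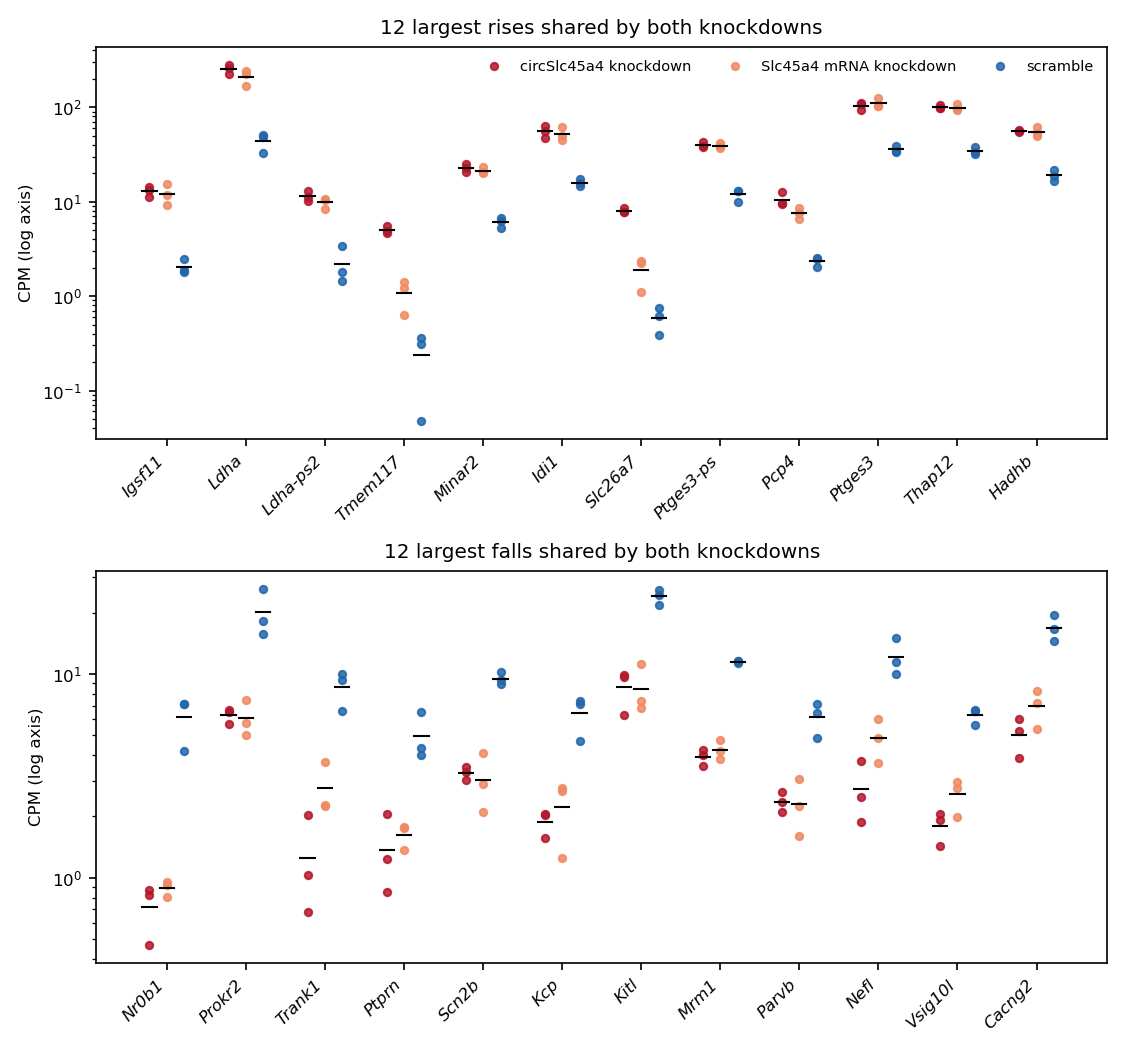
CPM (log axis) in each library for the 12 largest rises (top) and 12 largest falls (bottom) of the shared shift, chosen by these values; points are libraries, coloured by group, and black bars are group means. Scramble stands apart from all 6 knockdown libraries in each gene by construction, and for Igsf11, Thap12, Prokr2 and Kitl both knockdown groups sit at about the same level.

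The 12 largest shared falls included genes of receptors, channel subunits and the neuronal cytoskeleton. Nr0b1, an orphan nuclear receptor encoded on the X chromosome, was read at 0.872, 0.820 and 0.469 CPM in the circSlc45a4 knockdown, at 0.949, 0.917 and 0.803 CPM in the mRNA knockdown and at 7.12, 7.16 and 4.199 CPM in scramble. It had the largest fall of the 12, -2.94 ± 0.24 (adjusted p = 4.54e-06). Prokr2, a prokineticin receptor, was read at 5.68, 6.48 and 6.66 CPM, at 7.48, 5.74 and 5.04 CPM and at 15.7, 18.3 and 26.2 CPM in the same order. Kitl, the ligand of the Kit receptor, was read at 9.66, 6.26 and 9.88 CPM, at 11.2, 6.82 and 7.39 CPM and at 21.9, 24.4 and 25.9 CPM. The falls of Prokr2 and Kitl, -1.70 ± 0.16 and -1.496 ± 0.165, differed between the knockdowns by 0.04 and 0.03 only, neither called. Scn2b, a beta subunit of voltage-gated sodium channels, fell (-1.59 ± 0.18), as did Cacng2, an auxiliary subunit of AMPA receptors (-1.51 ± 0.16), and Mrm1, a mitochondrial ribosomal RNA methyltransferase (-1.49 ± 0.12). The others were Trank1 (-2.21 ± 0.27), Ptprn, a protein of dense-core vesicles (-1.72 ± 0.26), Nefl (-1.74 ± 0.21), Kcp (-1.65 ± 0.24), Vsig10l (-1.54 ± 0.18) and Parvb (-1.41 ± 0.20). Trank1 and Nefl fell more in the circSlc45a4 knockdown, with called direct differences of -1.12 ± 0.35 and -0.83 ± 0.26 (adjusted p = 0.0297 and 0.0309). With Xist as a covariate, Kcp, Ptprn, Trank1 and Vsig10l lost their calls, and the other 8 falls kept theirs.

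Short sequence runs in the 3′ UTRs of all genes were compared because the control is itself a small RNA. The 3′ UTR of 1 transcript per gene was read from GENCODE M21 (GRCm38) for 13178 of the genes tested, and for each of 4095 hexamers found in at least 100 genes the median averaged log2 fold change of the genes that hold it was taken. The hexamer GTCGAT had the highest median, 0.28 over 478 genes (3.63% of these 3′ UTRs hold it), and it ranked first in each knockdown taken alone as well, at 0.35 (circSlc45a4) and 0.23 (mRNA), 2 comparisons that share the scramble libraries. The next highest hexamer was CGTCGA at 0.15 over 129 genes, and the middle 99% of hexamers lay between -0.06 and 0.05. The hexamer was picked from this comparison, so these values describe it and no test was made. The reverse complement ATCGAC, in the 3′ UTR of 426 genes, ranked 3717 with a median of -0.02.

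The following windows of 28 bases show the hexamer in 3′ UTRs of shared higher genes that hold its extended form AGTCGATA. Thap12, which holds the 6 bases alone, comes last. The others had an average log2 CPM of at least 1 and are in order of their smaller change. They are a selection, not a full ranking of the shared higher genes with AGTCGATA, since some such genes were left out. Capitals mark the matched bases, and the sequences read 5′ to 3′ along the transcript.
Idi1: tggatgctcaAGTCGATAgaaggtatcg
Ptges3: aaaacccctgAGTCGATAgctctaaagg
Cemip: attcaccaagAGTCGATAtacaggcatt
Oprl1: ttggaagaagAGTCGATAccttggagat
Rbpj: gatgtagttaAGTCGATAactgagaaca
Abcg1: tccgagccaaAGTCGATAaatttcattc
Cyfip2: acctgtgttgAGTCGATAaaacattttc
Tsen15: catcccacgtAGTCGATAgacaggtatc
Thap12: acattatcactGTCGATccagttgtcag
On GRCm38 they lie at chr13:8891276-8891303 (Idi1, plus strand), chr10:128076151-128076178 (Ptges3, plus), chr7:83933245-83933272 (Cemip, minus), chr2:181720562-181720589 (Oprl1, plus), chr5:53655755-53655782 (Rbpj, plus), chr17:31114777-31114804 (Abcg1, plus), chr11:46193888-46193915 (Cyfip2, minus), chr1:152370963-152370990 (Tsen15, minus) and chr7:98717360-98717387 (Thap12, plus). The genes have unlike roles: Oprl1 is the nociceptin receptor, Rbpj the DNA-binding effector of Notch signalling, Abcg1 a sterol transporter, Cyfip2 a subunit of the WAVE actin regulatory complex and Tsen15 a subunit of the tRNA splicing endonuclease.

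**Figure D2:**
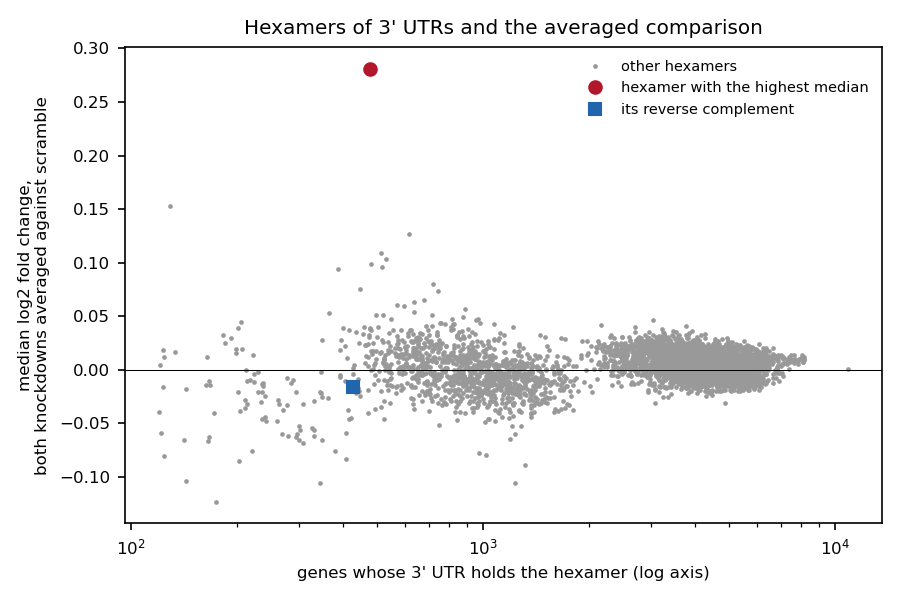
Each point is 1 of 4095 hexamers; the x axis (log) is the number of genes whose 3′ UTR holds it and the y axis the median averaged log2 fold change of those genes. The red point, at 0.28 over 478 genes, stands apart from the others, and its reverse complement (blue) lies at -0.02.

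The median was larger in genes whose match included the A on either side of the hexamer. Genes with the 8 bases AGTCGATA in their 3′ UTR (52 genes) had a median of 0.56, those with AGTCGAT alone (122) 0.29, those with GTCGATA alone (50) 0.37, those with the 6 bases alone (254) 0.22 and those without it (12700) -0.01. Of the 52 genes, 26 (50.0%) were in the shared shift as higher and 1 as lower, against 9.01% and 8.30% of all genes with a 3′ UTR. The choice of the hexamer from this comparison favours such shares. Other bases before the hexamer, with any base after it, gave medians of 0.34 (CGTCGAT, 32 genes), 0.27 (TGTCGAT, 187) and 0.13 (GGTCGAT, 101). The AGTCGAT class leaves out the 52 genes with the 8 bases, so a preceding A was not compared with these on like terms. Both knockdowns moved the 52 genes with the 8 bases about equally, with medians of 0.56 (circSlc45a4) and 0.58 (mRNA). The median of the direct comparison between the knockdowns, which does not use the level in scramble, was -0.06. In shorter forms the circSlc45a4 median exceeded the mRNA median: 0.45 and 0.25 (AGTCGAT), 0.36 and 0.23 (GTCGATA), 0.25 and 0.18 (6 bases). Their direct medians were 0.04, 0.03 and 0.13. Calls between the knockdowns covered 26.9% of the 52 genes and 38.3% of all 478 with the hexamer. They covered 56.5% of the 23 genes with 2 or more copies and 31.1% of all genes with a 3′ UTR. Genes with 2 or more copies (23) had a median of 0.47 and those with 1 copy (455) 0.27. A copy in the coding part but not in the 3′ UTR (1031 genes) went with a median of 0.12 and 18.8% of genes shared as higher. A copy in the 5′ UTR alone (71 genes) went with 0.06.

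The hexamer was picked from these same libraries, so a low scramble group follows from the choice. The values by library show only how the libraries of a group spread. Relative to the mean of the 9 libraries, the median log2(CPM + 0.5) of the 52 genes with the 8 bases was -0.23, -0.35 and -0.35 in scramble, 0.15, 0.13 and 0.19 with the circular RNA knocked down, and 0.13, 0.16 and 0.19 with the mRNA knocked down. For genes without the hexamer all 9 medians lay between -0.01 and 0.02. Genes that hold it had longer 3′ UTRs (median 2809 bases against 1112), and so had those that hold the reverse complement but not the hexamer (2568 bases), whose median change was -0.03. The part of 3′ UTR length in the pattern was not tested.

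**Figure D3:**
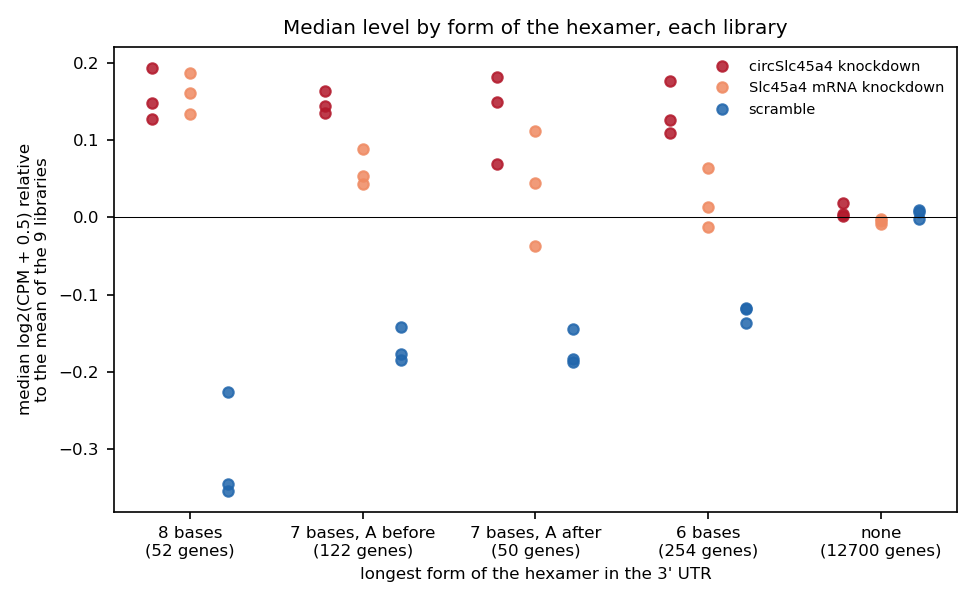
Median log2(CPM + 0.5) of the genes in each class, relative to each gene's mean over the 9 libraries; each point is a library, and classes are the longest form of the hexamer in the 3′ UTR. The 3 scramble libraries lie between -0.35 and -0.12 in the 4 classes that hold the hexamer, below all knockdown libraries, and within 0.02 of 0 in the class without it.

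The hexamer was picked from the comparison that defines the shared genes, so an excess among the higher ones follows from the choice. Of the 1187 shared higher genes with a transcript sequence, 152 (12.8%) held the hexamer in the 3′ UTR and 354 (29.8%) anywhere in the transcript, against 1.01% and 4.94% of the 1094 shared lower genes and 3.63% and 11.99% of all 13178. Most shared higher genes thus do not hold it, among them the largest rises Ldha, Minar2, Hadhb, Pcp4, Tmem117 and Slc26a7, while Igsf11 holds it in its coding part only. Among genes with a transcript sequence, 833 shared higher and 1040 shared lower genes held it nowhere. With the shared genes that have no transcript sequence counted as well, 969 higher and 1198 lower genes remained. Its reverse complement in RNA letters, AUCGAC, was at bases 2 to 7 of none, and within bases 2 to 8 of 1, of 1679 mature mouse microRNAs in the RefSeq table (GRCm38.p6). The sequence of the scrambled hairpin is not given in the sources used here, and whether its guide pairs with the hexamer was not tested. A match is a description of the letters and not a site of action.

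Of 13 genes of the small RNA machinery, which processes hairpins and carries out silencing, 5 fell and 1 rose (38.5% and 7.69%, against 11.4% and 11.3% over all genes), 4 of the falls in the shared shift. The median of the list was -0.02. Ago1, an Argonaute, was read at 474, 479.9 and 528 CPM in the circSlc45a4 knockdown, at 542, 548 and 587 CPM in the mRNA knockdown and at 678, 715 and 702 CPM in scramble. Tnrc6c, a partner of Argonaute in silencing, was read at 217, 176 and 213 CPM, at 168, 202 and 217 CPM and at 276, 325 and 310.2 CPM. Both fell (-0.41 ± 0.06 and -0.61 ± 0.09), as did Drosha, the nuclease that cuts microRNA precursors (-0.32 ± 0.07). The calls of Ago1, Tnrc6c and Drosha were lost with Xist as a covariate, those of Ago1 and Drosha also with a minimum change of 1.2-fold, and that of Drosha with the knockdowns as a single group. Ago2 went the other way (0.84 ± 0.10), but in the circSlc45a4 knockdown above all, and its libraries were not fully separated (this gene was picked after its values were seen).

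Genes of apical progenitors were mostly higher. Of 29 markers 16 rose and 1 fell, and 5 rises and no fall were in the shared shift (over all genes 11.3% rose and 7.45% were shared higher), with a median of 0.39 against -0.01 over all genes. Fabp7, the fatty acid binding protein of radial glia, was read at 306, 368 and 372 CPM in the circSlc45a4 knockdown, at 192, 170.1 and 214 CPM in the mRNA knockdown and at 136, 142 and 112 CPM in scramble. Aldoc, an aldolase of radial glia and astrocytes, was read at 151, 172 and 169 CPM, at 74.5, 79.8 and 99.7 CPM and at 51.9, 70.4 and 56.8 CPM. The groups followed the same order for both, and the rise was larger in the circSlc45a4 knockdown: 1.42 against 0.56 for Fabp7 (difference 0.86 ± 0.11, adjusted p = 1.61e-04) and 1.46 against 0.50 for Aldoc (0.95 ± 0.12, adjusted p = 1.56e-04). The median of the 29 markers was 0.59 in the circSlc45a4 and 0.21 in the mRNA knockdown, and 15 of them were called between the knockdowns (26.1% of all genes were). The summed level of the list was 4365 to 4655 CPM in the circSlc45a4 knockdown, 2957 to 3499 CPM in the mRNA knockdown and 3030.3 to 3197 CPM in scramble, so that on this scale the mRNA knockdown overlapped scramble. In bulk samples, more cells of a type and more RNA per cell cannot be told apart.

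Of 28 genes of newborn neurons, 11 fell and 3 rose (39.3% and 10.7%, against 11.4% and 11.3% over all genes), and 7 and 2 of these were in the shared shift; 14 members were not called. The summed level of the list was 13560 to 14986 CPM in the circSlc45a4 knockdown, 11979 to 13897 CPM in the mRNA knockdown and 14393 to 16976 CPM in scramble, so that on this scale the circSlc45a4 knockdown overlapped scramble. Stmn2, a regulator of microtubules in growing neurites, was read at 210.3, 266 and 265 CPM in the circSlc45a4 knockdown, at 173, 274 and 221 CPM in the mRNA knockdown and at 518, 424 and 379 CPM in scramble. Sema3c, a secreted guidance protein, was read at 78.3, 60.4 and 69.4 CPM, at 116, 78.0 and 77.1 CPM and at 211, 203 and 143 CPM. The 2 knockdowns overlapped each other in both genes, and neither reached scramble, which the rule for shared genes requires. The changes were -0.91 ± 0.13 and -1.23 ± 0.14, and -0.81 ± 0.11 for the vesicle protein Syt4. Differences between the knockdowns were not called for any of the 3, and Stmn2 lost its call with Xist as a covariate. All 4 measured neurofilament genes fell, and Nefl and Nefh, the light and heavy chains, were fully separated. Nefl was read at 3.76, 1.89 and 2.503 CPM, at 3.66, 6.01 and 4.87 CPM and at 15.0, 10.01 and 11.5 CPM. Nefh was lower still, at 0.0224 to 0.0547 CPM in the circSlc45a4 knockdown, 0.0837 to 0.378 CPM in the mRNA knockdown and 0.741 to 1.67 CPM in scramble, and lost its call with Xist as a covariate.

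Of 16 deep-layer genes 6 rose and 1 fell (37.5% and 6.25%), with 3 and 1 in the shared shift. Of 15 upper-layer genes 3 rose and 6 fell, with 1 and 3 shared, where over all genes 11.3% rose and 11.4% fell and 7.45% and 7.05% were shared. The median of the upper-layer list was -0.28 in the circSlc45a4 knockdown and -0.13 in the mRNA knockdown. Its summed level was 2767 to 2999.5 CPM and 2841 to 3593 CPM in the same order. Both overlapped scramble, at 2993.9 to 3939 CPM. The median of the deep-layer list was 0.59 in the circSlc45a4 knockdown and 0.09 in the mRNA knockdown, and its summed level of 1233 to 1541 CPM in the mRNA knockdown overlapped that of scramble, 1203 to 1462 CPM, while the circSlc45a4 knockdown lay at 1561 to 1882 CPM. Fezf2, the factor that specifies subcerebral projection neurons, was read at 131, 141 and 119 CPM in the circSlc45a4 knockdown, at 145, 149 and 125 CPM in the mRNA knockdown and at 79.6, 80.4 and 89.5 CPM in scramble. It rose by 0.70 ± 0.08 (adjusted p = 7.62e-05), and Rprm, another deep-layer gene, by 0.98 ± 0.15. Cux2, an upper-layer homeobox factor, was read at 95.7, 63.2 and 101 CPM, at 138, 185 and 195 CPM and at 269, 336 and 269 CPM. It stepped down from scramble over the mRNA knockdown (-0.76) to the circSlc45a4 knockdown (-1.75), a difference of -0.99 ± 0.17 between the knockdowns (adjusted p = 8.75e-04), and Pou3f1 fell in the same order (-0.79 and -1.64). Rprm and Pou3f1 lost their calls with Xist as a covariate. Epha3, an ephrin receptor that stands in the upper-layer list, rose by 0.85 ± 0.06.

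**Figure D4:**
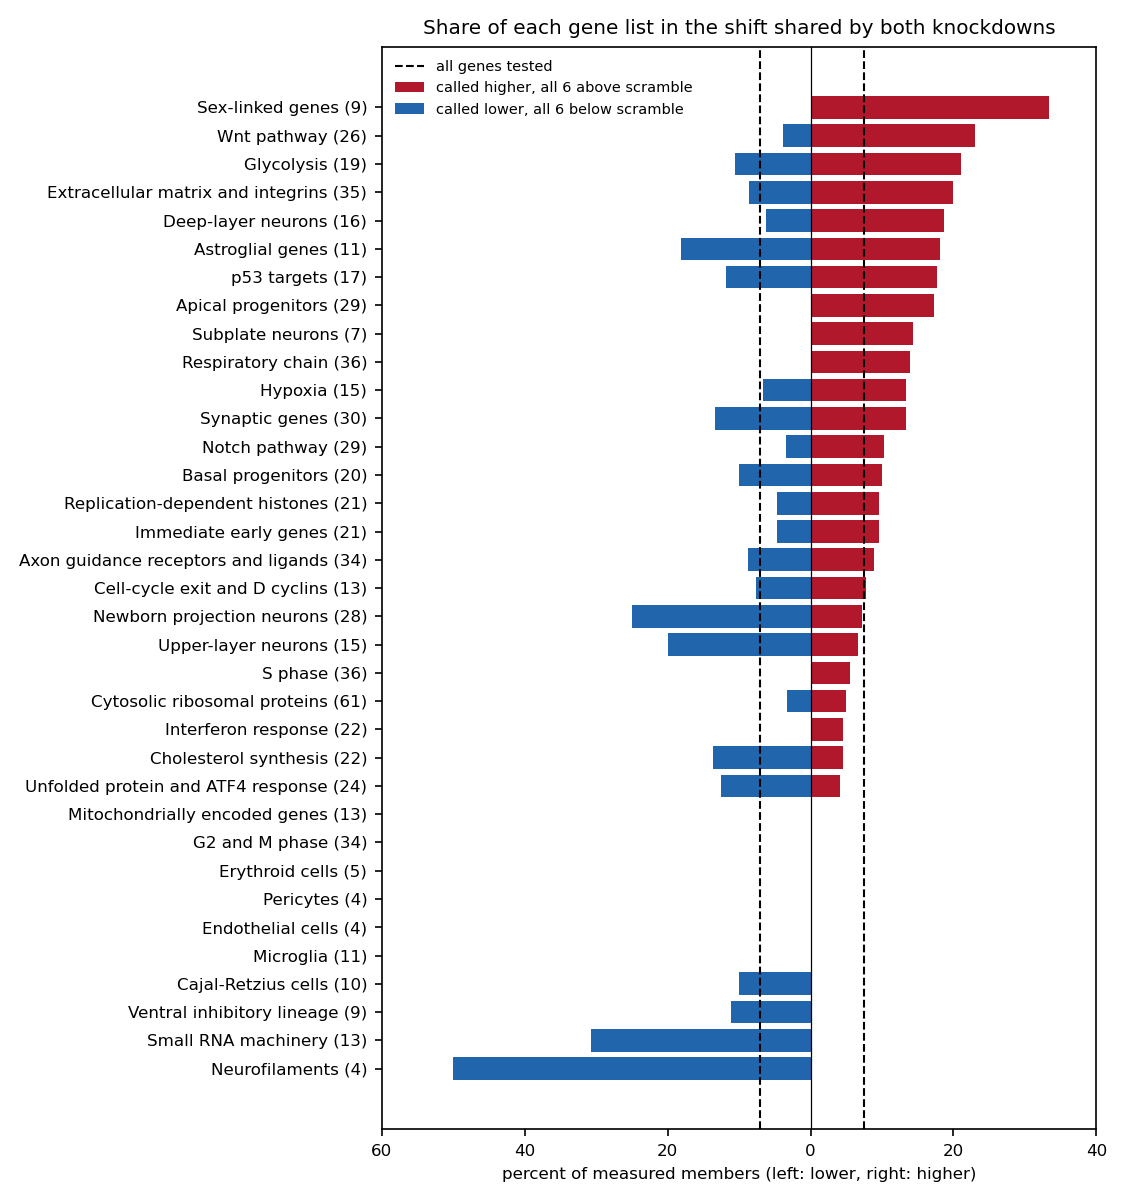
Percent of the measured members of each gene list (number in brackets) that were called higher with all 6 knockdown libraries above scramble (red, right) or called lower with all 6 below (blue, left); dashed lines mark the same shares over all genes tested, 7.45% and 7.05%. Lists with fewer than 4 measured members are not drawn; small lists make large percentages from few genes.

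In the Notch list 6 of 29 genes rose and 7 fell (20.7% and 24.1%, against 11.3% and 11.4% over all genes), with 3 and 1 in the shared shift. Rbpj was read at 183, 185 and 198 CPM in the circSlc45a4 knockdown, at 198, 181 and 203 CPM in the mRNA knockdown and at 88.8, 93.0 and 96.0 CPM in scramble. All 6 knockdown libraries thus stood above scramble by about the same amount (1.05 ± 0.07, adjusted p = 1.14e-06), equally in both knockdowns (difference -0.04 ± 0.07). The receptor Notch2 rose by 2.02 in the circSlc45a4 and by 0.54 in the mRNA knockdown, and the glycosyltransferase Mfng fell (-0.64 ± 0.08). Notch2 lost its call with the knockdowns as a single group and Mfng with Xist as a covariate. In the Wnt list 9 of 26 rose and 2 fell (34.6% and 7.69%), with 6 and 1 in the shared shift, and its median was 0.32 in the circSlc45a4 knockdown and -0.01 in the mRNA knockdown. The secreted Wnt inhibitor Sfrp1 was read at 263, 283 and 307 CPM, at 263, 239 and 268 CPM and at 156, 162 and 144 CPM, and the ligand Wnt7b at 218, 199.5 and 176 CPM, at 144, 192 and 170.1 CPM and at 317, 370.1 and 297 CPM. Sfrp1 rose by 0.81 ± 0.08 and Wnt7b fell by 0.85 ± 0.10, each without a called difference between the knockdowns.

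Of 35 extracellular matrix and integrin genes 14 rose and 5 fell (40.0% and 14.3%, against 11.3% and 11.4% over all genes), with 7 and 3 in the shared shift. The list had a median of 0.43 in the circSlc45a4 knockdown and 0.07 in the mRNA knockdown. Its summed level was 2392 to 2501 CPM in the circSlc45a4 knockdown. In the mRNA knockdown it was 1510 to 1754 CPM, which overlapped the 1724 to 1927 CPM of scramble. Itgb8, an integrin beta subunit, was read at 28.3, 27.8 and 30.3 CPM in the circSlc45a4 knockdown, at 29.0, 20.1 and 27.3 CPM in the mRNA knockdown and at 13.48, 14.1 and 15.0 CPM in scramble, a rise of 0.93 ± 0.12. At the synapse 6 of 30 genes rose and 4 fell (20.0% and 13.3%), and 4 of each were shared: the adhesion protein Nlgn1 rose by 1.48 ± 0.17, and the vesicle calcium sensor Syt1 fell by 1.03 ± 0.11. Among 34 axon guidance genes 5 rose, 14.7% and near the share over all genes, and 8 fell (23.5%), with 3 of each shared, and the semaphorin Sema6d fell by 0.82 ± 0.10.

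Of 19 glycolysis entries, 4 rose, all shared, and 3 fell, 2 of them shared (21.1% and 15.8%, against 11.3% and 11.4% over all genes). Beside Ldha, described above, Pfkp, a phosphofructokinase, was read at 23.0, 19.4 and 18.3 CPM, at 32.3, 41.2 and 34.8 CPM and at 47.0, 47.2 and 51.4 CPM and fell by 0.84 ± 0.10, a call lost with the knockdowns as a single group. In the cholesterol list Idi1 was the only rise against 4 falls of 22 (18.2%), among them Dhcr7, the last reductase of the pathway (-0.56 ± 0.09). The hypoxia list had 2 rises and 1 fall of 15 (13.3% and 6.67%), and Egln3, a prolyl hydroxylase of the hypoxia response, rose by 1.496 ± 0.149. Slc7a5, a large neutral amino acid transporter in the ATF4 list (1 rise and 4 falls of 24, 4.17% and 16.7%), fell by 1.02 ± 0.09. Of 36 respiratory chain genes 6 rose (16.7%), 5 of them shared, and 1 fell (2.78%), and no mitochondrially encoded gene of 13 was called. Among 36 S phase genes 2 rose and 4 fell (5.56% and 11.1%), and among 34 of G2 and M phase 3 rose (8.82%) and none fell, none of these above the shares over all genes. Their medians had opposite signs in the 2 knockdowns: -0.48 (circSlc45a4) and 0.31 (mRNA) for S phase and -0.26 and 0.45 for G2 and M phase.

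Of the 2575 shared genes, 633 differed between the knockdowns in the direct comparison, against 26.1% of all genes tested. Among the 1323 higher genes 308 were called and 817 had the larger change in the circSlc45a4 knockdown, and among the 1252 lower genes 325 and 715. The most uneven gene was Parm1, read at 16.3, 17.8 and 14.1 CPM in the circSlc45a4 knockdown, at 0.865, 0.863 and 1.11 CPM in the mRNA knockdown and at 0.622, 0.648 and 0.772 CPM in scramble. All 6 knockdown libraries were above scramble, but the mRNA knockdown alone did not pass the test (0.46 ± 0.22, adjusted p = 0.177). The extracellular matrix protein Tnc was read at 457, 449.9 and 472 CPM, at 53.6, 52.4 and 85.4 CPM and at 41.1, 48.1 and 22.3 CPM, and its rise of 3.63 in the circSlc45a4 knockdown exceeded that of the mRNA knockdown, 0.78, by 2.85 ± 0.24 (adjusted p = 5.79e-06). Cemip, a hyaluronan-degrading protein, is the one of these that holds AGTCGATA, and its levels of 159 to 287 CPM, 16.4 to 38.6 CPM and 4.73 to 16.3 CPM did not follow the even pattern of Idi1 and Ptges3. Parm1, Tnc and Cemip lost their averaged calls with the knockdowns as a single group.

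**Figure D5:**
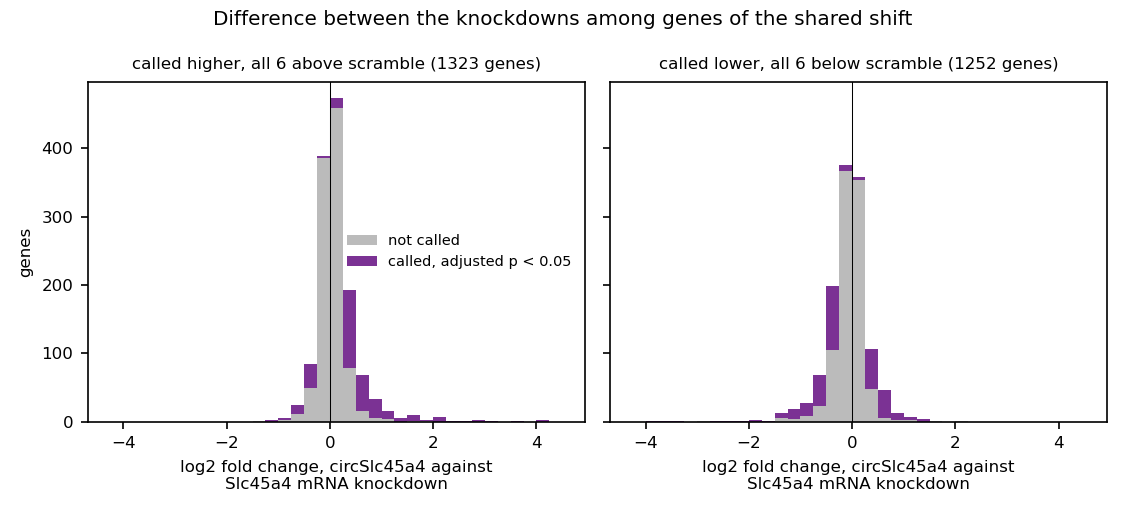
Histograms of the log2 fold change of the circSlc45a4 against the mRNA knockdown for the 1323 higher (left) and 1252 lower (right) genes of the shared shift; purple marks genes called in that comparison (308 and 325), grey those not called. Most genes lie within 0.5 of 0, and the tails reach 4.08 for Parm1 (left) and -3.57 for Nptx2 (right).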

How the data were processed

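The authors deposited raw read counts per gene for 53379 Ensembl IDs in 9 libraries, without normalization. The submitters' processing notes name STAR 2.4.2a, bcl2fastq 2.17.1.14, build mm10 and DESeq2; no source used here gives counting tool, annotation release or strand setting, so reads of a gene and of an antisense partner cannot be told apart. IDs were joined to GENCODE M21 (GRCm38) without their version (53274 had a symbol).

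The filterByExpr function (edgeR 4.0.16) with a minimum count of 10 chose the genes, which were scaled by TMM and fitted with the quasi-likelihood model, 1 term per group, 6 residual degrees of freedom. The main contrast was the mean of both knockdown groups minus scramble. Calls are Benjamini-Hochberg adjusted p under 0.05 over 17760 genes. Values are CPM (counts per 1000000 TMM-scaled counts); fold changes are log2 ± SE. The test was checked on simulated data.

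The members, the 39 gene lists and the naming rule were chosen with earlier results of these data known. The rule names Slc45a4, the 12 largest shared rises and falls (average log2 CPM of at least 1, no predicted models), the 6 most uneven shared genes, and up to 3 shared members per list by smallest p; genes named for a sequence window, or as the exception of a short count, were chosen after their values were seen. A symbol can match 2 IDs (glycolysis). Replicate numbers did not pair the libraries: correlations of same-numbered deviations lay between -0.13 and 0.10. Alternatives were RLE and upper-quartile factors, limma-voom 3.58.1, DESeq2 1.42.0, other filters, a minimum change of 1.2-fold, Xist as a covariate, a replicate block, thinning and leaving out each library.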

Additional observations from a re-analysis of the deposited data

Results flagged for a closer look

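For 6 genes of the shared shift the effect against scramble differed between the knockdowns, by the direct comparison of the circSlc45a4 with the mRNA knockdown (edgeR quasi-likelihood test, n = 3 libraries each). These are the 6 largest such differences among shared genes and were chosen for them. On the log2 scale they were 4.08 ± 0.19 for Parm1 (adjusted p = 8.16e-08), 4.02 ± 0.36 for Cav1, the scaffold protein of caveolae (8.17e-06), and 3.18 ± 0.38 for Cemip (8.65e-05). They were 2.85 ± 0.24 for Tnc (5.79e-06), 2.76 ± 0.26 for the integrin Itga9 (1.68e-05) and -3.57 ± 0.36 for the neuronal pentraxin Nptx2 (2.32e-05). Cav1 was read at 8.45, 12.4 and 4.85 CPM in the circSlc45a4 knockdown, at 0.586, 0.432 and 0.554 CPM in the mRNA knockdown and at 0.335, 0.421 and 0.216 CPM in scramble. Nptx2 was read at 0.201, 0.355 and 0.112 CPM, at 3.10, 2.27 and 2.49 CPM and at 3.11, 3.56 and 3.98 CPM in the same order. For Parm1, Cav1 and Nptx2 the mRNA knockdown against scramble did not pass the test (adjusted p = 0.177, 0.316 and 0.318). With the knockdowns treated as a single group, 5 of these 6 calls in the averaged comparison were lost, that of Itga9 excepted.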

How the results depend on the processing

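Among 98 genes followed through the alternatives (18 to 20 of them per gene), none reversed its direction; those named for a sequence window, at the threshold or after their values were seen were not followed. RLE and upper-quartile factors, limma-voom, DESeq2, no filter, 1 CPM in 3 libraries, the replicate block and thinning to the smallest library kept the counts of higher, lower and shared genes within 1.5 times; the block, although the replicate numbers do not pair the libraries, gave 1795 higher and 1789 lower genes, 1247 and 1153 of them shared, and Slc45a4 kept its call. Higher, lower, shared higher and shared lower counts moved to 803, 658, 668 and 541 with a minimum change of 1.2-fold, to 517, 186, 421 and 160 with Xist as a covariate and to 873, 644, 850 and 635 with the knockdowns as a single group. In the last 2, Slc45a4 was not called (-0.56 and -0.67, adjusted p = 0.131 and 0.0502). Leaving out 1 library gave 1181 to 2170 higher and 1078 to 2058 lower genes, 989 to 1600 and 876 to 1387 of them shared, and -0.75 to -0.63 for Slc45a4. Xist is near 0 in every scramble library, so its covariate takes up much of the comparison itself. Of 97 other named genes, 44 lost their call with it, 24 with the minimum change and 11 without scramble replicate 2. Further alternatives were added after seeing the data: without genes of chromosomes X and Y the shared counts were 1258 and 1220, and without genes found to hold the hexamer 969 and 1198. The last counts keep genes without a transcript sequence, which were not searched. The shallower scramble libraries set the precision for low genes: 3 counts are 0.143 CPM in the shallowest library and 0.0671 CPM in the deepest.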

Other observations

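A few genes of the shared shift were read almost only in the knockdowns. Moxd1, a copper monooxygenase homologue in the subplate list, was read with the circular RNA targeted at 0.402, 0.465 and 0.335 CPM and with the linear mRNA targeted at 0.195, 0.270 and 0.111 CPM, and had 0 counts in all 3 scramble libraries. Against 3 counts over the scramble group (0.0356 CPM) it was at least 8.31-fold higher, a call lost with Xist as a covariate. Ido2 and Trhr, the receptor of thyrotropin-releasing hormone, were likewise at 0 in scramble, and were at least 13.2-fold and 11.8-fold higher; both were chosen after their values were seen. These levels are low, and the bound covers counting error only.

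Shared genes also differed from all tested genes in measures that did not define them. Over genes with a transcript sequence, the median GC content was 47.4% for shared higher and 51.5% for shared lower genes, against 50.2% for all, and the median 3′ UTR was 1488 and 1411 bases long against 1152. Shared higher genes had a median average log2 CPM of 5.48 and shared lower genes of 4.93, against 4.79 for all, and deeper genes are called more readily. These are descriptions without a test.

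Among the sex-linked genes, Eif2s3x, an X-linked gene that escapes inactivation, was read at 304, 302 and 317 CPM in the circSlc45a4 knockdown, at 389, 304 and 254 CPM in the mRNA knockdown and at 207, 196 and 192 CPM in scramble. It was lowest among the knockdowns in the library without Xist, mRNA knockdown replicate 3, and still above scramble there. The X-linked shared genes Ddx3x and Kdm6a did not follow this order. In that library Ddx3x was at 714 CPM, against 657, 596 and 716 CPM in the circSlc45a4 knockdown and 745 and 607 CPM in mRNA knockdown replicates 1 and 2. Kdm6a was at 68.4 CPM there, against 63.9, 55.6 and 64.3 CPM in the circSlc45a4 knockdown. Y-linked transcripts such as Kdm5d were read at 26.4 CPM or more in every library but mRNA knockdown replicate 1 (0.112 CPM).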
